A study of Mus musculus with 8 samples.

Results

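The transcripts described here are the 44 genes whose levels spread furthest over 8 libraries of mouse embryonic stem (ES) cells, and each is described by whether it followed the clone, the passage or neither. They were chosen on their measured range: a mean of at least 10 normalised counts over the 8 libraries, and a difference of more than 4 between the highest and the lowest value of log2(normalised count + 1), which is a factor of 16 on that scale. Of 23337 names in the table, 14791 had such a mean and 636 passed the range. Of these, 569 stood in alphabetical runs of names in which 1 name extends another by a digit, where values sit on the wrong lines, and were left out. Of the 67 that were left, 4 Y-linked genes and 19 genes with interferon-related names were set aside by name, which gave the 44 genes. Since the range chose them, their spread is a description and not a finding.

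ES cells are pluripotent cells grown from the inner cell mass of the blastocyst, and cultures were split into new plates at each passage. According to the labels, 4 independent wild type lines of the 129S1 strain were made from mouse blastocysts that expressed GFP from the Rosa26 locus, and were grown in DMEM with LIF. The lines, here called clones 6, 20, 30 and 36, were sequenced at passage 6 and again at passage 16, with 1 library for each clone at each passage. The strain is not certain, as the methods give C57BL6 as the background of 2 of the cultured clones and 129S1 for the cells used to make chimaeras. The comparison of passages asked whether expression changed as the cells were expanded. A clone is 1 cell line, and each clone and passage is a single culture, so differences between clones and between cultures of a clone cannot be told apart except where both passages of a clone are alike.

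The libraries held between 21394069 and 34295561 reads. Naive pluripotency genes marked every library as ES cells, with summed levels of 15 such genes outside the runs between 119762 and 129828 normalised counts. Both libraries labelled clone 6 were less alike than those of the other clones: over the 12283 names outside the runs, the deviations from the passage means correlated across genes with r = 0.096 for clone 6, against 0.27 for clone 20, 0.70 for clone 30 and 0.43 for clone 36. The passage 6 library of clone 6 correlated more with clone 36 at passage 16 (r = 0.28). The passage 16 library of clone 6, however, correlated with no passage 6 library more than with that of clone 6. Clone 36 at passage 6 correlated most with clone 36 at passage 16. Genes are not independent replicates, and these values are given without a test.

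As background, many of the 44 genes belong to programmes that are switched on by a signal and are nearly silent without it. Interferons bind receptors at the cell surface and raise antiviral and antigen-presentation genes, a response known to be weak in ES cells. Low oxygen stabilises the factor HIF1, which raises its own feedback inhibitors. The Y chromosome is present or absent as a whole, and keratins, placental proteases and other lineage genes mark cells that leave the pluripotent state.

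By these roles, which were assigned after the values had been seen, 18 of the 44 were interferon-inducible or antigen-presentation genes, 3 were Y-linked, 3 respond to low oxygen, 9 are known from epithelium or placenta, and 11 had other roles. Ranges ran from 4.08 to 9.74 on the log2 scale, with a median of 5.17. The interferon group had a median range of 5.55, the low-oxygen genes 5.34, the epithelial and placental genes 5.07, the Y-linked genes 5.76 and the others 4.56.

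**Figure D1:**
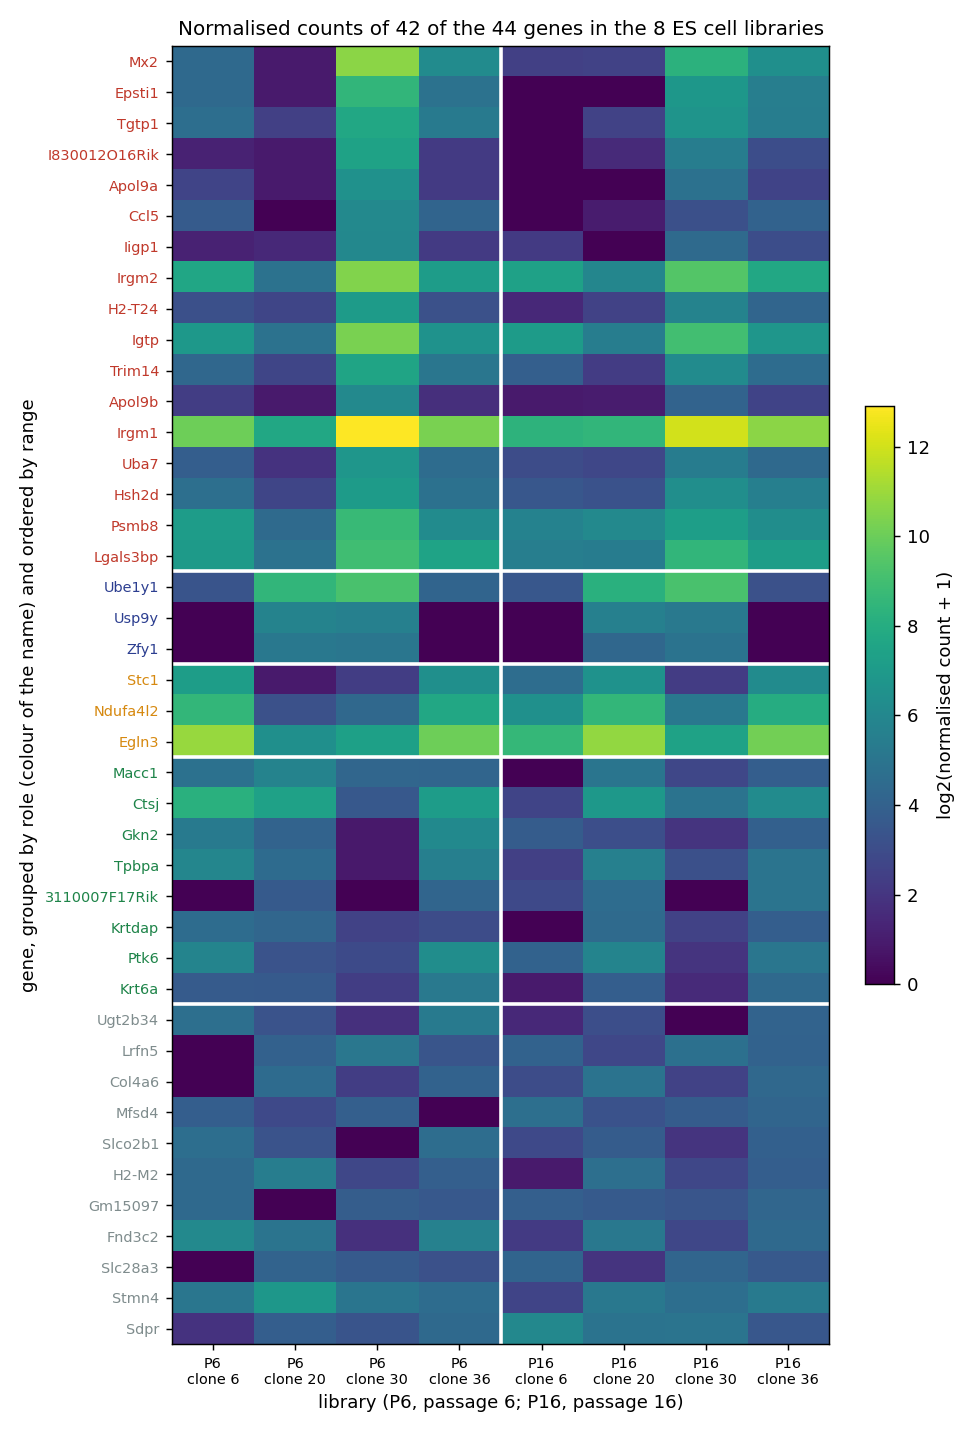
Heat map of log2(normalised count + 1) for 42 of the 44 genes (vertical axis, in role groups, names coloured by role) in the 8 libraries (horizontal axis). The interferon group at the top was highest in clone 30 at passage 6, and *Usp9y* and *Zfy1* were at 0 in clones 6 and 36.

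To ask what each gene followed, its 8 values were sorted and divided at the largest gap. A gene followed the clone where whole clones fell on either side, and followed the passage where the sides were passages 6 and 16. The clone pattern held for 9 genes (20.5%), among all names outside the runs for 7.64%. No gene of the 44 followed the passage, against 11 of 12283 names (0.0896%). A single library stood apart for 21 genes (47.7%, against 50.8% of names), and 14 genes were mixed (31.8%, against 41.5%). The choice by range favours large gaps of any kind, so these shares are read as a description.

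Among the genes that followed the clone were *Igtp*, *Irgm2*, *H2-T24*, *Apol9a* and *I830012O16Rik*, set apart by clone 30, and *Usp9y*, *Zfy1* and *Ube1y1*, set apart by clones 20 and 30 together. The mixed genes were *Lgals3bp*, *Hsh2d*, *Irgm1*, *Ccl5*, *Epsti1*, *Egln3*, *Ndufa4l2*, *Stc1*, *Krt6a*, *Ptk6*, *3110007F17Rik*, *Gkn2*, *Ctsj* and *Fnd3c2*. The single-library class included *Mx2*, *Tgtp1*, *Iigp1*, *Psmb8*, *Uba7*, *Trim14*, *Apol9b*, *Krtdap*, *Tpbpa*, *Macc1*, *Sdpr*, *Stmn4*, *Slc28a3*, *Gm15097*, *H2-M2*, *Slco2b1*, *Mfsd4*, *Col4a6*, *Lrfn5* and *Ugt2b34*.

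A graded measure was also taken. The sum of squares of the log2 values was divided into a part between clones, a part between passages and a remainder. The remainder holds different moves of the clones between passages together with the variation of single libraries. Passage has fewer degrees of freedom than clone or remainder, so its share is smaller even where nothing differs. The clone took the largest share for 36 of the 44 genes, the remainder for 8 and the passage for none of them. This count was not taken over all names. The median shares were 74.4% for clone, 5.35% for passage and 15.3% for the remainder, against 53.4%, 8.35% and 30.4% over the names outside the runs. Clone 30 decides much of this: when the rule was applied without its 2 libraries, 24 genes were left, with median shares of 42.0%, 14.3% and 33.1%. The clone share was 90.5% in the median of the interferon group and 99.2% for the Y-linked genes, while the remainder took 49.2% for the low-oxygen genes. The highest passage share was 39.4%, for *Sdpr*.

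**Figure D2:**
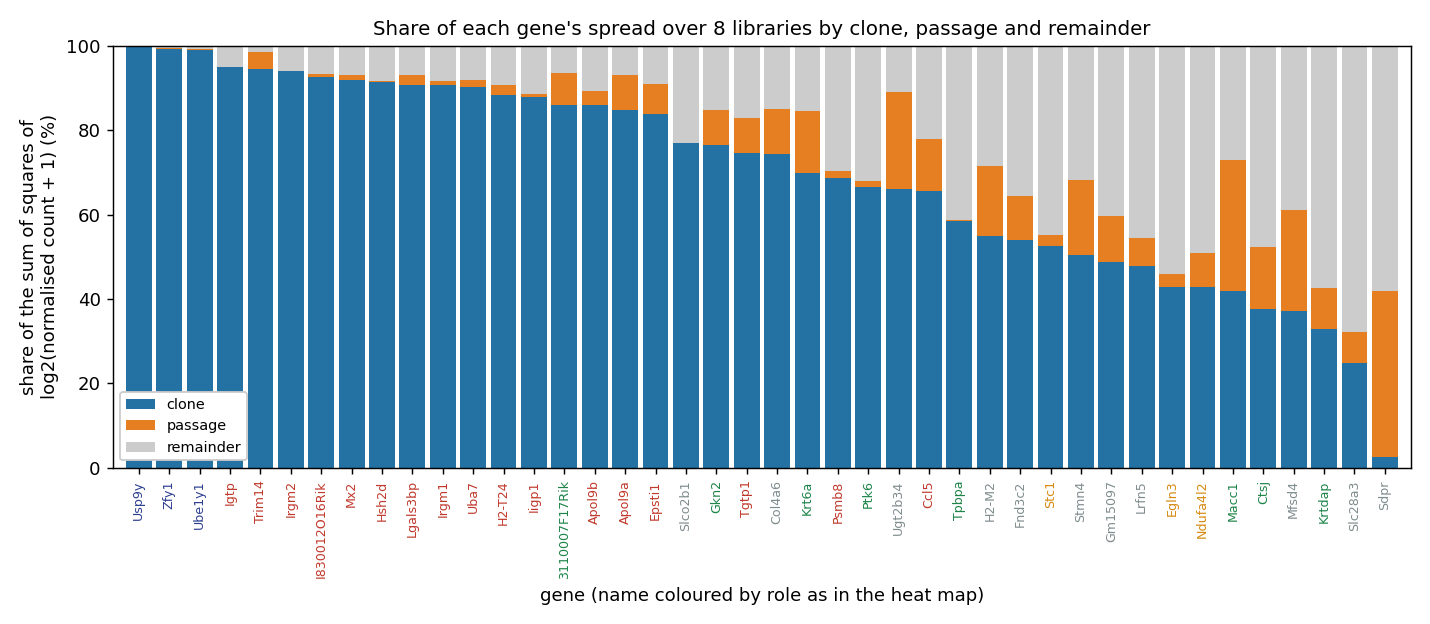
Stacked bars give, for each of 42 of the 44 genes (horizontal axis), the percentage of the sum of squares of log2(normalised count + 1) that fell between clones (blue), between passages (orange) and in the remainder (grey). Passage was the largest part for none of them, and its highest share was 39.4%, for *Sdpr*.

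The interferon-inducible genes were the largest group, and the clone took at least 65.7% of the spread in each. By the largest gap, 6 of the 18 followed the clone, 7 had a single library apart and 5 were mixed. All 18 were highest in clone 30 at passage 6. The group was formed after the values had been seen, so this count and the next are a description. The class I-like *H2-M2*, placed with the other roles, was at only 5.75 and 5.80 in clone 30 at passages 6 and 16. In 17 of the 18, both libraries of clone 30 lay above the other 6 libraries, an order that 9.71% of the names outside the runs also showed, and the lower of the clone 30 libraries stood 1.08 to 5.93 times above the highest other library. The exception was *Ccl5*. Since clone 30 at passage 6 was the highest library, all 18 had to be lower in clone 30 at passage 16. The difference was 1.34- to 8.49-fold with a median of 2.56-fold, and the choice by range favours large ones. The lowest library was clone 20 at passage 6 for 8 of them, clone 6 at passage 16 for 4 and clone 20 at passage 16 for 3, and *Apol9a*, *Epsti1* and *Ccl5* were at 0 in 2 libraries of these clones. In bulk RNA, fewer expressing cells and less RNA per cell cannot be told apart.

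Motifs in the promoters of this group can be read beside their levels. RefSeq promoters on GRCm38.p6, from 250 bases before to 50 bases after a start site, were found for 12 of the 18 genes. The interferon-stimulated response element ISRE, known from promoters of genes that answer to interferon, was searched as 2 copies of GAAA with any 2 bases between them, and the gamma-activated site GAS as TTCNNNGAA, on both strands. An ISRE stood in 7 of the 12 (*Apol9a*, *Apol9b*, *I830012O16Rik*, *Igtp*, *Irgm1*, *Irgm2* and *Tgtp1*), in 0 of 19 genes of the Y-linked, epithelial, placental and other groups with a promoter, and in 3.44% of all 32851 promoters. A GAS stood in 4 of the 12, in 2 of the 19 and in 8.30% of all. Matches are a description of the letters in this window and not of binding. The 110 bases before the start site are shown for 5 of these genes as examples, with the motif in capitals (GAS or ISRE, overlapping matches joined), 5′ to 3′ on the strand of the gene.
*Igtp*, chr11:58199446-58199555 (plus strand): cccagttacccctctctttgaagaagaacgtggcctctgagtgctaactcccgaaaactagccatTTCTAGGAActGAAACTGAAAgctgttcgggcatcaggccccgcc
*Irgm2*, chr11:58214867-58214976 (plus strand): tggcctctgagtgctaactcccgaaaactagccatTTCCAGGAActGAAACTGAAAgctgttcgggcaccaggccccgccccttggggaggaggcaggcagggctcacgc
*Tgtp1*, chr11:48992247-48992356 (minus strand): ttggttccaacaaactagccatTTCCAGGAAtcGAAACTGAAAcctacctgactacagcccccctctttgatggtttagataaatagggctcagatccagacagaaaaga
*Irgm1*, chr11:48871421-48871530 (minus strand): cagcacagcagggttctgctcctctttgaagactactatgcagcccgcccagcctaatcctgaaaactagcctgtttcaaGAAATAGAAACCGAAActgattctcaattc
*Apol9a*, chr15:77411081-77411190 (minus strand): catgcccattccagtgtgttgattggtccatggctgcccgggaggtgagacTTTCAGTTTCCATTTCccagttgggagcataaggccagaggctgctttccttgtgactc
In *Igtp*, *Irgm2* and *Tgtp1*, all on chromosome 11, the first base of the ISRE lay 11 bases after the first base of the GAS, at -34, -64 and -77 from the start site. *Irgm1* had 2 overlapping ISRE matches, at -30 and -24, and *Apol9a* had 2 at -59 and -53.

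In the values that follow, the 4 numbers of a passage are normalised counts in clones 6, 20, 30 and 36, in that order. *Mx2*, of the family of antiviral dynamin-like GTPases, is classed as a transcribed pseudogene in RefSeq and had the widest range of the 44 (9.74). Its levels were 20.04, 0.901, 1624 and 73.4 at passage 6 and 4.39, 4.78, 309.5 and 85.1 at passage 16. Its lowest value is 1 read, and the ratio of clone 30 to clone 20 at passage 6 was 1800 with a 95% interval of 323 to 71200 (exact Clopper-Pearson, counting error only). Clone 36 lay between clone 30 and the others at both passages.

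The immunity-related GTPases act on the vacuoles of intracellular pathogens and made up 5 of the 18. *Irgm1*, the most abundant of them, was at 1074, 213, 7655 and 1245 at passage 6 and 329, 354, 4209.5 and 1632 at passage 16. *Irgm2* was at 195, 27.9, 1429 and 139 at passage 6 and 167, 59.3, 689 and 210.1 at passage 16, and *Igtp*, which lies 7384 bases from it on chromosome 11, was at 118, 27.9, 1286 and 94.8 at passage 6 and 133, 43.05, 509.7 and 109 at passage 16. These neighbours ran in parallel: in both, clone 30 was highest, clone 20 lowest, and clone 30 was 2.07- and 2.52-fold lower at passage 16 than at passage 6. *Tgtp1*, 113908 bases from *Irgm1*, was at 24.1, 4.50, 209 and 39.1 at passage 6 and 0, 4.78, 99.6 and 43.04 at passage 16. *Iigp1* was at 1.34, 1.80, 63.2 and 3.55 at passage 6 and 3.51, 0, 21.3 and 7.17 at passage 16. Both had a library at 0, and clone 30 was the highest clone at both passages.

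Antiviral effectors outside the GTPases again had both libraries of clone 30 above the others. *Epsti1* was at 20.04, 0.901, 357 and 28.4 at passage 6 and 0, 0, 113 and 44.1 at passage 16. *I830012O16Rik*, now named *Ifit3b* and one of the tetratricopeptide proteins that bind viral RNA, was at 1.34, 0.901, 173 and 3.55 at passage 6 and 0, 1.91, 42.6 and 7.17 at passage 16. *Trim14*, an adaptor of antiviral signalling, was at 18.7, 5.41, 184 and 31.98 at passage 6 and 14.03, 3.83, 72.5 and 22.5 at passage 16 and was detected in all 8 libraries. The apolipoprotein L genes *Apol9a* and *Apol9b*, 317966 bases apart on chromosome 15, are near-identical copies whose reads could be split between them. *Apol9a* was at 5.34, 0.901, 91.96 and 3.55 at passage 6 and 0, 0, 27.1 and 5.12 at passage 16. *Apol9b* was at 4.01, 0.901, 66.5 and 2.37 at passage 6 and 0.877, 0.957, 16.4 and 5.12 at passage 16. In both, clone 30 stood alone above all other libraries. For the 6 interferon genes with a library at 0, the highest library was at least 22.0- to 136-fold higher than 3 reads in the library at 0.

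Genes of antigen processing, ubiquitin-like modification and immune signalling completed the group. *Psmb8*, a subunit of the immunoproteasome, was at 140.3, 20.7, 411 and 74.6 at passage 6 and 50.9, 66.96, 152 and 77.9 at passage 16, with the smallest margin of the 17 genes (clone 30 at passage 16 was 1.08 times clone 6 at passage 6). *H2-T24*, a class I-like histocompatibility gene, was at 8.02, 5.41, 135 and 8.29 at passage 6 and 1.75, 4.78, 54.2 and 17.4 at passage 16. *Uba7*, which activates the ubiquitin-like protein ISG15, was at 13.4, 2.70, 108 and 22.5 at passage 6 and 7.02, 5.74, 41.6 and 20.5 at passage 16. Clone 30 was above all others in each of these. *Hsh2d*, an adaptor of lymphocyte signalling, was at 25.4, 5.41, 135 and 27.2 at passage 6 and 10.5, 8.61, 81.2 and 46.1 at passage 16. *Lgals3bp*, a secreted galectin-binding glycoprotein, was at 131, 27.9, 487 and 178 at passage 6 and 45.6, 41.1, 363 and 142 at passage 16. *Ccl5*, a chemokine that attracts T cells, was at 12.03, 0, 65.7 and 16.6 at passage 6 and 0, 0.957, 7.74 and 15.4 at passage 16. In *Ccl5* alone did clone 36 overtake clone 30 at passage 16.

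The Y-linked genes separated the clones into the same pairs at both passages. *Usp9y*, a deubiquitinase gene, was at 0, 53.2, 48.4 and 0 at passage 6 and 0, 47.8, 36.8 and 0 at passage 16. *Zfy1*, which encodes a zinc finger factor, was at 0, 35.1, 32.02 and 0 at passage 6 and 0, 19.1, 29.02 and 0 at passage 16. *Ube1y1*, now named *Uba1y* and encoding a ubiquitin-activating enzyme, was at 9.35, 355, 581 and 16.6 at passage 6 and 10.5, 286, 578 and 8.20 at passage 16. All 3 were higher in clones 20 and 30 than in clones 6 and 36 at both passages, with *Usp9y* and *Zfy1* at 0 in the latter and *Ube1y1* at most 16.6. Against 3 reads, the highest library was at least 13.3-fold higher for *Usp9y* and 8.77-fold for *Zfy1*. *Ube1y1* has a close copy on the X, and how reads that match both were counted is not given in the sources used here. The order among clones 20 and 30 differed between the genes, and *Usp9y* and *Zfy1* were higher in clone 20 than in clone 30 at passage 6.

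A test across clones was fitted to the whole table (limma moderated F-test over the clone terms with passage in the model, Benjamini-Hochberg adjusted over 14791 names). It called 2 of the 44 genes at an adjusted p under 0.05, *Ube1y1* (adjusted p = 0.0207) and *Usp9y* (adjusted p = 0.0435), and 0.135% of all names. Fitted to the 12283 names outside the runs alone, limma called 7 of the 44 and 0.505% of names, with *Ube1y1* (adjusted p = 0.00123), *Usp9y* (0.00556), *Zfy1* (0.0143), *Trim14* (0.0230), *Igtp* (0.0316) and *Irgm2* (0.0403) among them. The range that chose the genes includes the clone differences, so nothing is read from these counts. Without clone 20 the test called 0 of the 41 genes that kept a mean of at least 10, with 27 at an unadjusted p under 0.05. Over all 14781 names it then called 0, with 1843 at that level. Without clone 30 it called 0 of 36, with 11 at an unadjusted p under 0.05. Over all 14768 names it then called 20, with 487 at that level. Without clone 36 it called 1 of 40, and 18 of 14810 names.

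The low-oxygen genes did not follow the clone as labelled across passages. *Egln3*, a prolyl hydroxylase that marks HIF for degradation, was at 1909.5, 84.7, 158 and 1072 at passage 6 and 389, 1782, 170.2 and 1123 at passage 16. *Ndufa4l2*, a HIF1 target of the mitochondrion, was at 366, 8.11, 19.7 and 214 at passage 6 and 86.8, 368, 34.8 and 255 at passage 16. *Stc1*, which encodes the secreted glycoprotein stanniocalcin, was at 144, 0.901, 4.11 and 85.3 at passage 6 and 23.7, 93.7, 3.87 and 74.8 at passage 16. Clone 6 was 4.90-, 4.22- and 6.09-fold lower at passage 16 than at passage 6, whereas clone 20 was 21- and 45.4-fold higher at passage 16 for *Egln3* and *Ndufa4l2*. For *Stc1* in clone 20 the ratio was 104 and rests on 1 read at passage 6, with a 95% exact interval of 18.2 to 4150. Clones 30 and 36 moved by at most 1.77-fold in any of the 3 genes, with clone 30 low and clone 36 high at both passages.

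At passage 6 clone 20 was the lowest library of the 8 for all 3 of these genes, and at passage 16 it was the highest of the 4 clones. The change of the passage means does not show this: *Ndufa4l2* was 1.08 higher at passage 16 on the log2(normalised count + 1) scale (SE 1.31), and -0.34 without clone 20. The core of the hypoxia response element, ACGTG on either strand, was found in the *Egln3* promoter, the only one of the 3 with a promoter sequence, and in 19.6% of all promoters. The oxygen and density of each culture are not among the labels, and their part in these levels was not tested.

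**Figure D3:**
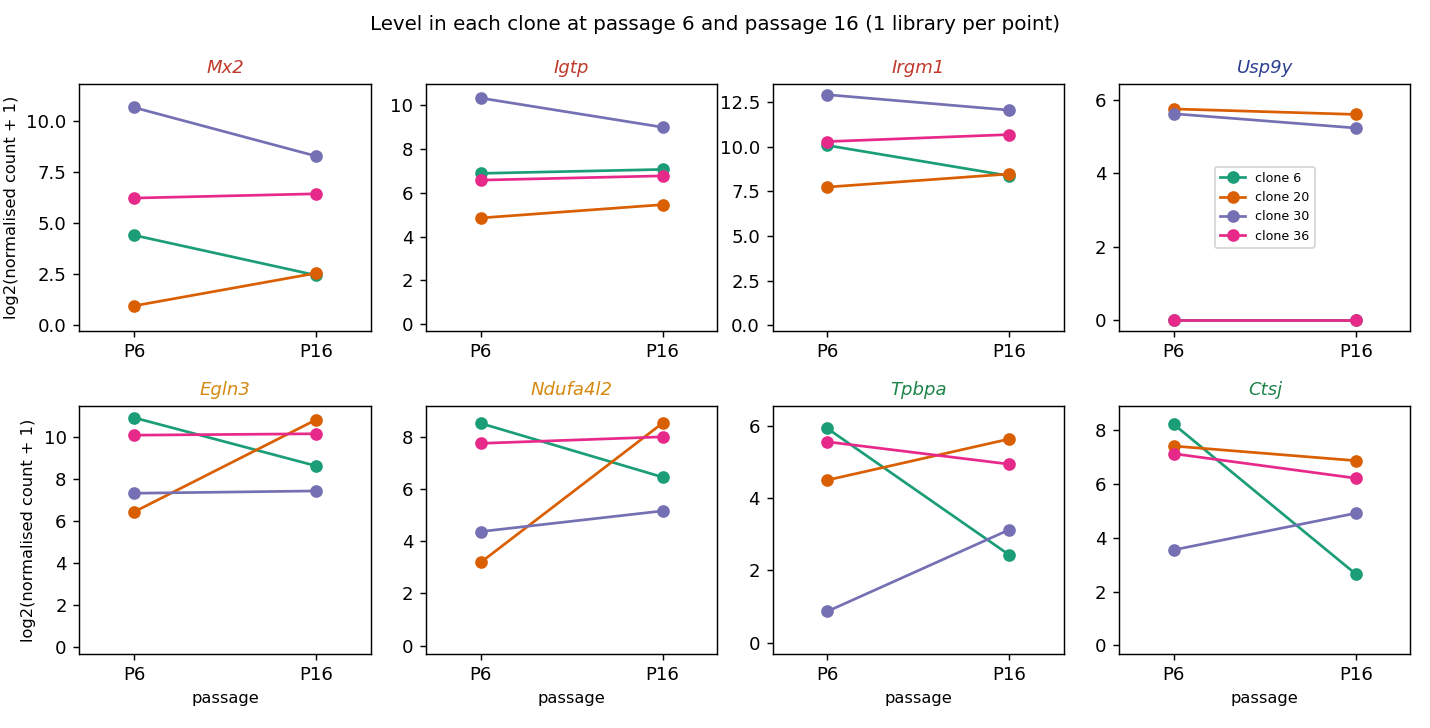
Level of 8 genes, as log2(normalised count + 1), in each clone (colour) at passage 6 (P6) and passage 16 (P16), 1 library per point. In *Usp9y* the points of clones 6 and 36 coincide at 0. Lines stay in order for *Igtp* and cross for *Egln3* and *Ndufa4l2*, where clone 6 was lower and clone 20 higher at passage 16.

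The epithelial and placental genes were lowest in the passage 16 library of clone 6 for 5 of 9, and their group median lay below the gene means in that library and in both of clone 30. *Ctsj*, a cathepsin of the placenta, was at 294, 168, 10.7 and 137 at passage 6 and 5.26, 115, 29.02 and 72.8 at passage 16. *Tpbpa*, which marks the spongiotrophoblast and is the only 1 of the 44 genes in a marker list used here, was at 60.1, 21.6, 0.821 and 46.2 at passage 6 and 4.39, 48.8, 7.74 and 29.7 at passage 16. They lie 58242 bases apart on chromosome 13, and in both, clone 6 went from the highest library at passage 6 to among the 3 lowest at passage 16. *Macc1*, a regulator of MET signalling, was at 26.7, 54.1, 18.1 and 17.8 at passage 6 and 0, 31.6, 5.80 and 13.3 at passage 16, with its only 0 in clone 6 at passage 16.

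*Krt6a*, a keratin of stratified epithelium, was at 12.03, 11.7, 4.11 and 36.7 at passage 6 and 0.877, 13.4, 1.93 and 20.5 at passage 16. *Krtdap*, a keratinocyte differentiation gene, was at 22.7, 18.02, 4.93 and 7.11 at passage 6 and 0, 21.04, 4.84 and 13.3 at passage 16. Both had at most 1 read in clone 6 at passage 16. *Ptk6*, an epithelial tyrosine kinase, was at 56.1, 9.01, 6.57 and 78.2 at passage 6 and 15.8, 55.5, 2.90 and 32.8 at passage 16. *Gkn2*, a secreted protein of the stomach lining, was at 37.4, 16.2, 0.821 and 69.9 at passage 6 and 12.3, 7.65, 2.90 and 14.3 at passage 16. *3110007F17Rik*, an X-linked gene now named *Cldn34c1* and of the claudin family, was at 0, 11.7, 0 and 17.8 at passage 6 and 6.14, 22.96, 0 and 30.7 at passage 16. These were low in clone 30 at both passages, and *3110007F17Rik* was at 0 in both of its libraries.

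In 4 of these 9 genes (*Ctsj*, *Tpbpa*, *Krt6a* and *Krtdap*), and in 4 of the 11 with other roles (*Fnd3c2*, *H2-M2*, *Slco2b1* and *Ugt2b34*), the same 3 libraries lay below the other 5: clone 30 at both passages and clone 6 at passage 16. That is 8 of the 20 genes in these groups. No interferon, Y-linked or low-oxygen gene showed this order, so it held for 8 of all 44 genes. Among the names outside the runs 11.2% showed it. Roles and order both come from values already seen, and the order is given without a test. *Fnd3c2* was at 65.5, 30.6, 2.46 and 49.7 at passage 6 and 3.51, 34.4, 5.80 and 20.5 at passage 16. *H2-M2*, a class I-like histocompatibility gene, was at 20.04, 43.2, 5.75 and 14.2 at passage 6 and 0.877, 24.9, 5.80 and 13.3 at passage 16. These 3 libraries also had the lowest sums of 3 marker lists of other cell types, while the mesoderm and endoderm lists were not lowest in the 3 together. The primitive endoderm list (21 names outside the runs) summed to 59106 to 66131 normalised counts in them and to 96291 to 166584 in the other 5, and the fibroblast list (18 names) to 19412 to 21780 and 26869 to 33858. Both lists include *Sparc*, so their sums are not fully separate readings. The neural list (10 names) summed to 4859 to 5565 in them and to 5786 to 7199 in the other 5. The trophoblast list had its highest sums in clone 30 (4531 and 5557 at passages 6 and 16, and 2810 to 3971 in the other 6 libraries), of which *Tfap2c* alone was 2783 and 3445. Its members did not move together, and *Eomes* (112 and 138) and *Cyp11a1* (78.8 and 89.95) were lowest in clone 30. The part of other cell types in these levels was not tested.

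**Figure D4:**
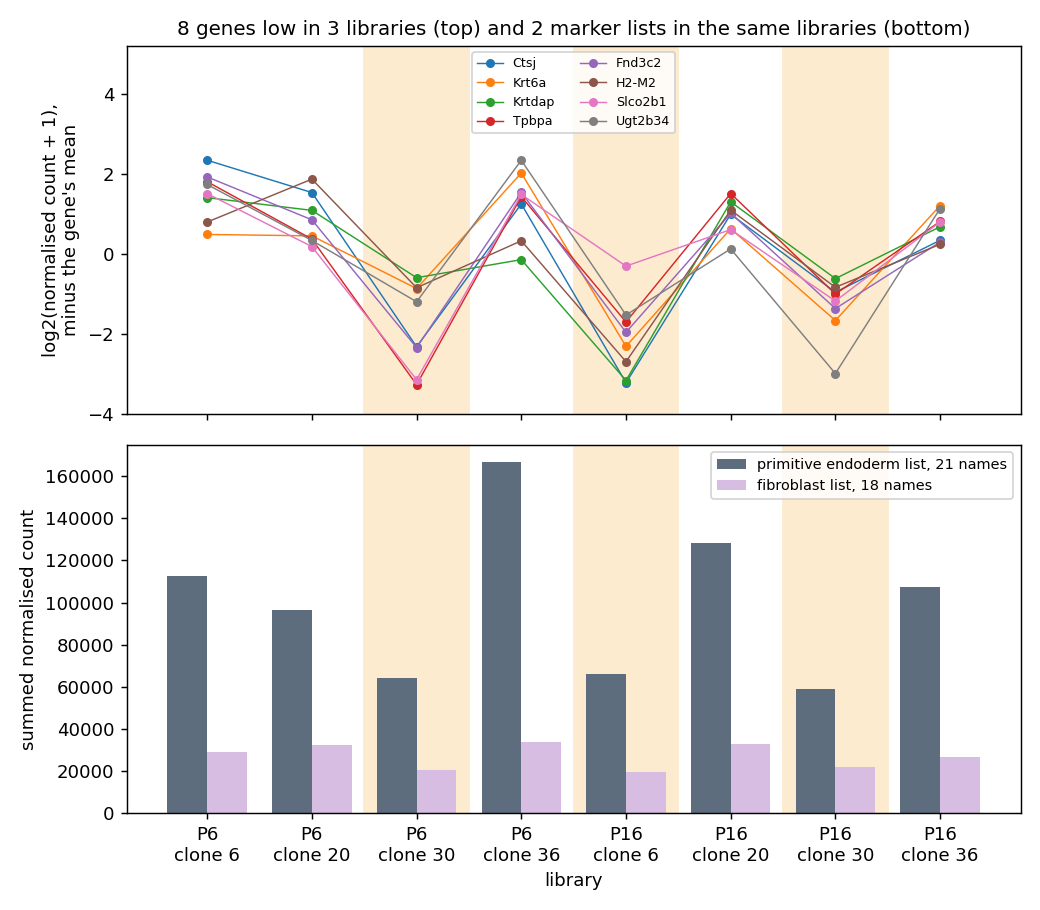
Top, log2(normalised count + 1) minus the gene's mean for the 8 genes that were lowest in the same 3 libraries (shaded) out of 8 (horizontal axis). Bottom, summed normalised counts of the primitive endoderm and fibroblast marker lists in each library, which with the neural list were lowest in the shaded libraries.

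The remaining genes were mostly rare, with a mean under 25 normalised counts in 9 of 11. *Ugt2b34*, a glucuronosyltransferase, was at 25.4, 9.01, 2.46 and 39.1 at passage 6 and 1.75, 7.65, 0 and 16.4 at passage 16. *Slco2b1*, an organic anion transporter, was at 24.1, 9.01, 0 and 23.7 at passage 6 and 6.14, 12.4, 2.90 and 14.3 at passage 16. Both were at 0 in clone 30 in 1 passage. *Lrfn5*, a synaptic adhesion gene, was at 0, 15.3, 33.7 and 9.48 at passage 6 and 15.8, 5.74, 26.1 and 15.4 at passage 16. *Col4a6*, an X-linked chain of basement membrane collagen, was at 0, 21.6, 4.11 and 15.4 at passage 6 and 7.02, 29.7, 4.84 and 19.5 at passage 16. *Slc28a3*, a nucleoside transporter, was at 0, 16.2, 11.5 and 8.29 at passage 6 and 16.7, 2.87, 17.4 and 11.3 at passage 16. In all 3 the passage 6 library of clone 6 held no read, and no library of another clone did so. *Mfsd4*, of the major facilitator family, was at 13.4, 6.31, 13.96 and 0 at passage 6 and 25.4, 8.61, 12.6 and 17.4 at passage 16, with its 0 in clone 36, and the X-linked *Gm15097* was at 20.04, 0, 13.1 and 10.7 at passage 6 and 14.03, 11.5, 9.67 and 18.4 at passage 16, with its 0 in clone 20. For the 7 genes of this group with a library at 0, the highest library was at least 4.34- to 13.5-fold higher than 3 reads.

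*Stmn4*, a stathmin that acts on microtubules of neurons, was at 32.1, 112, 31.2 and 22.5 at passage 6 and 5.26, 35.4, 24.2 and 38.9 at passage 16. *Sdpr*, now named *Cavin2* and a coat protein of caveolae, was at 2.67, 13.5, 9.03 and 20.1 at passage 6 and 64.03, 29.7, 29.98 and 10.2 at passage 16. It was the 1 gene of the 44 highest in clone 6 at passage 16 with a library of the same clone as its lowest. In clone 6 the ratio of passage 16 to passage 6 was 24, with a 95% exact interval of 6.40 to 202 from 2 reads at passage 6, while clone 36 was lower at passage 16.

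Passage itself was tested over the whole table with limma on log2(normalised count + 1), with n = 4 libraries per passage. It called 0 of the 44 genes, the lowest Benjamini-Hochberg adjusted p among them being 0.947, and 0.00676% of all names (only *Sox18*, whose name stands in a run). At an unadjusted p under 0.05, limma found 0 of the 44, edgeR 1 and DESeq2 2 of 39. Over all names, limma found 518 and edgeR 632 of 14791 at that level, and DESeq2 920. After adjustment, edgeR and DESeq2 also called 0 of the genes. The libraries of the 2 passages overlapped in all 44 genes, where 2.37% of the names outside the runs did not overlap. The fitted changes from passage 6 to passage 16 ran from -1.86 (*Macc1*, SE 1.00) to 1.49 (*Sdpr*, SE 0.68), with 33 genes lower at passage 16 and 11 higher and a median of -0.36, against -0.004 over all names. In the two-sided exact permutation test over the 70 splits of 8 libraries, *Sdpr* had the lowest p of the 44 (0.0857), where 0.0286 is the smallest the design allows. The standard errors lay between 0.68 and 2.18 in this fit, which leaves the spread between clones in the error. With the clone as a block, limma's standard errors were 0.22 to 1.37, and 0 of the 44 were called (lowest adjusted p = 0.726). In that fit 884 of 14791 names had an unadjusted p under 0.05, among them 2 of the 44 genes. Those 2 were *Ugt2b34* (-1.62, SE 0.56) and *Trim14* (-0.65, SE 0.25). Along with *Macc1* (-1.86, SE 0.81) they were lower at passage 16 in 4 of 4 clones, and *Col4a6* (0.99, SE 0.58) was higher in 4 of 4. A like direction in all 4 clones also arises by chance, and its share over all names was not taken. Neither fit shows that passage left the genes unchanged.

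Within clones the genes moved by different amounts and in different directions. From passage 6 to passage 16, 33 of the 44 were lower and 9 higher in clone 6, with a median log2 change of -1.62. Clone 30 had 32 lower and 11 higher, with a median of -0.58. Clone 20 had 17 lower and 27 higher (median 0.30), and clone 36 had 17 lower and 25 higher (median 0.13). Median sizes of the change were 2.01 in clone 6, 0.77 in clone 20, 1.01 in clone 30 and 0.61 in clone 36. Of the 44 genes, 20 were highest in clone 30 at passage 6, and many were lowest in clone 6 at passage 16. The choice by range thus favours lower values at passage 16 in these clones. These counts and medians were not taken over all names.

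Values in a passage that took no part in the choice, other than through the mean over 8 libraries, show how far the clone order carried over. The 4 libraries of passage 6 alone spanned more than 4 on the log2 scale for 34 genes. At passage 16 the same clone was highest for 23 of these, against 35.7% of the names outside the runs, and the same clone was lowest for 13. The share for the lowest clone was not taken over all names, so nothing is read from that count. The passage 16 range of the 34 had a median of 3.53 (0.87 to 6.84), against 0.37 over the names outside the runs, and 14 exceeded 4 again. For the 18 interferon genes, all within the 34, clone 30 was again highest in 17. That group had been formed with the values of both passages seen. *Egln3*, *Ndufa4l2*, *Stc1*, *Ctsj*, *Fnd3c2* and *Tpbpa* went from clone 6 to clone 20 as the highest. Chosen on passage 16 alone, 18 genes had the same highest clone at passage 6 in 12 cases and the same lowest clone in only 4. Their median range at passage 6 was 5.22, against 0.38 over the names outside the runs.

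How much of the range rests on single reads differed by role. In 28 of the 44 genes at least 1 library had fewer than 3 reads, and in 18 at least 1 library was at 0. When counts under 3 reads were raised to 3 reads, an alternative added after seeing the data, 29 genes kept a range over 4: 18 of 18 interferon genes, 3 of 3 low-oxygen genes, 5 of 9 epithelial and placental genes, 1 of 3 Y-linked genes and 2 of the 11 others. A 0 here means that the transcript was not detectable at this depth, and not that it was absent.

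**Figure D5:**
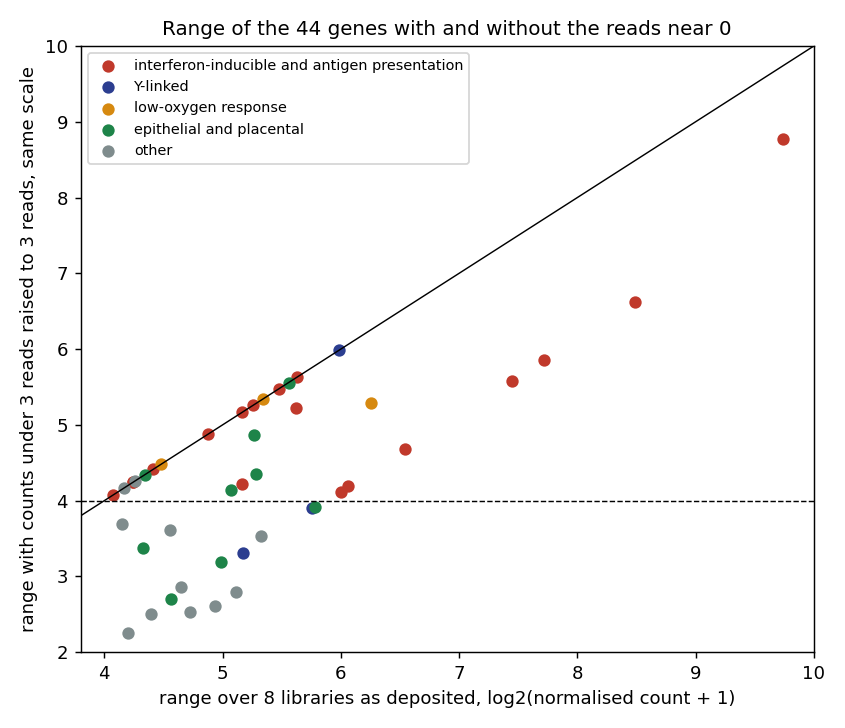
Range over the 8 libraries on the log2(normalised count + 1) scale as deposited (horizontal axis) and with counts under 3 reads raised to 3 reads (vertical axis), 1 point per gene, coloured by role. The solid line marks equal values and the dashed line the threshold of 4, above which all 18 interferon genes and 29 of 44 genes stayed.

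Near the threshold, the genes just inside were *Lgals3bp* (4.08), *Sdpr* (4.15) and *Stmn4* (4.17), and those just outside were *Mx1* (3.96), *Mgp* (3.93) and *Psg29* (3.87). *Mx1*, an antiviral GTPase, was at 5.34, 5.41, 73.9 and 14.2 at passage 6 and 7.02, 3.83, 21.3 and 10.2 at passage 16. *Mgp*, the matrix Gla protein, was at 4.01, 9.01, 4.11 and 8.29 at passage 6 and 75.4, 29.7, 18.4 and 6.15 at passage 16. *Psg29*, a pregnancy-specific glycoprotein, was at 109.6, 27.9, 6.57 and 58.04 at passage 6 and 7.89, 34.4, 29.98 and 23.6 at passage 16. *Mx1* had the clone 30 order of the interferon genes, *Mgp* was highest in clone 6 at passage 16 as *Sdpr* was, and *Psg29* was highest in clone 6 at passage 6 and lowest in clone 30 at that passage.

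By position, 6 of the 44 genes were on chromosome 11 (13.6%, against 8.27% of the names tested that were matched to RefSeq), 4 on the X (9.1%, against 3.86%) and 3 on the Y (6.8%, against 0.0544%), the Y-linked share being that left after 4 others were set aside by name. Adjacent genes can share reads or regulation, and neighbours are not independent cases. None of the 44 was in the lists of naive pluripotency, imprinted, germline, primitive endoderm, fibroblast, mesoderm, endoderm, neural or detoxification genes, and among list genes outside the runs limma called 0 between passages and 1, the imprinted *Meg3*, between clones. *Sox18* and *Meg3* are named after their values were seen. Of the 16 trophoblast genes listed, only *Tpbpa* was among the 44.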

How the data were processed

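RNA of 8 mouse ES cell libraries had been sequenced as 50-base single-end reads from stranded polyA libraries. According to the methods and the submitters' processing notes, reads were aligned to GRCm38 with TopHat2 2.0.10 and Bowtie 1.0.0, allowing several hits per read, and counted with HTSeq 0.5.3p9. Whether counting used the strand is not given in the sources used here. The authors deposited a signal for each gene: its count after division by a size factor of the library. Whole reads were recovered for 100% of values in each library (tolerance 1e-06).

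The 44 genes, the lists and the tests were chosen with earlier results of these data known. Names in alphabetical runs, where values stand on the wrong lines, number 5080 and stayed in the main fits. The main tests were limma 3.58.1 in R 4.3.3 (lmFit, eBayes with a trend) on log2(normalised count + 1) over names with a mean of at least 10, passage alone for the passages and clone terms with passage for the clones, Benjamini-Hochberg adjusted at 0.05. Fold changes on this scale understate those of low values. Counting tests on the recovered reads were edgeR 4.0.16 and DESeq2 1.42.0, both as alternatives. Other alternatives were pseudocounts of 0.5 and 10, a mean of at least 100, no filter, TMM scaling, eBayes without a trend, names outside the runs, ranges above 3 and 5, and leaving out each library or clone. On simulated counts, limma called 93.8% of genes changed by 1 on the log2 scale between passages (12229 genes, 1 false call) and 84.7% between clones (12228 genes, 3 false calls). The simulated counts had 1 fixed dispersion and no other differences between clones or cultures. These rates therefore do not carry over to the 44 genes, whose clones differed widely.

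Libraries with the same clone number are, by the labels, 1 cell line at different passages. Their deviations from the passage means correlated with r = 0.096, 0.27, 0.70 and 0.43 for clones 6, 20, 30 and 36, so the values did not settle this for clone 6. The genes are named in their pattern classes, and 2 of the 44, counted throughout, are not reported individually here. Full values were due for the clone pattern, for the 8 widest of each other class, for those beside the threshold and for listed genes, and further genes were chosen after their values were seen. Names matched RefSeq for 39 of the 44 by symbol and 5 by synonym. Genes with close copies (*Apol9a*, *Apol9b*, *Tgtp1*, *I830012O16Rik*, *Mx2*, *Irgm1*, *Irgm2*, *Zfy1*, *Ube1y1*, *Usp9y*) are uncertain where reads match more than 1 place. Python 3.11.15, numpy 2.4.6, pandas 2.3.3, scipy 1.17.1 and matplotlib 3.10.9 were used.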

Additional observations from a re-analysis of the deposited data

Results flagged for a closer look

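Among the 4 libraries of each passage, *H2-T24* had 1 library far from the others at passage 6. Clone 30 held 134.7 normalised counts (164 reads) where the other clones held 5.41 to 8.29. On the log2(normalised count + 1) scale, the gap to the nearest was 0.878 of the range, above Dixon's 95% critical value for 4 samples. It was 1 of 88 groups examined. That value gives about 1 in 20 by chance in samples not chosen for their spread, which does not hold here, since the range over these libraries chose the genes.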

How the results depend on the processing

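None of 25 alternatives of the passage test called a gene among those of the 44 it tested (11 with a mean of at least 100, 26 with DESeq2 and the block, 36 to 44 in the others), and 0 genes followed the passage in 10 settings. The number of names called between passages (1) was 0 outside the runs and 44 with DESeq2, and 1 to 26 when libraries or clones were left out (26 without clone 30, 13 and 12 without its passage 6 or passage 16 library). With the clone as a replicate block, the names called were 0 in limma (also 0 outside the runs), 2 in edgeR and 98 in DESeq2, and the pairing changed no call among the 44. Between clones, the names called (20) were 62 outside the runs, 1122 with DESeq2, 73 with edgeR outside the runs and 0 to 95 when clones were left out (0 without clone 20, 95 without clone 6). The 2 of the 44 called between clones became 1 with a mean of at least 100, 1 with edgeR, 7 outside the runs, 10 with edgeR outside the runs, 15 with DESeq2 and 0 to 2 with clones left out.

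The 44 genes became 12 with a pseudocount of 10, 11 with a mean of at least 100, 105 with a range above 3, 25 above 5, 29 with the floor of 3 reads, and 24 to 45 with libraries or clones left out (24 without clone 30). The clone pattern (9) held for 4 and 4 under the first 2 of these and for 2 to 19 with clones left out (2 without clone 30, 19 without clone 6). A single library stood apart (21) in 3, 2, 55 and 10 under the first 4, and in 9 to 20 with clones left out. Mixed patterns (14) numbered 5, 5, 40 and 7, and 2 to 7 with clones left out. With clones left out, median shares were 42.0 to 92.0% for clone, 1.03 to 14.3% for passage and 7.04 to 33.1% for the remainder, the extremes being without clone 30 and without clone 6. The passage change of *Mx2* (-0.63) was 1.07, 0.19 and 0.16 without clone 30 at passage 6 and without clones 6 and 20 at passage 16, and that of *Ndufa4l2* (1.08) was -0.34 without clone 20. With libraries or clones left out they ranged from -2.18 to 1.07 and from -0.34 to 2.13. The cause was not tested. A change of each gene whose passages do not overlap was planned, and no gene met that condition. With 1 library per clone and passage, library and clone cannot be told apart within a passage, and levels under 3 reads limit the 28 genes that have them.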
